A study of Mus musculus with 6 samples.

Results

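The regulators of G-protein signaling (RGS) described here are 8 genes, Rgs1, Rgs2, Rgs3, Rgs10, Rgs14, Rgs16, Rgs18 and Rgs19, found by gene symbol among the 15319 genes listed in a bulk RNA-Seq table of tumor-infiltrating Tregs. Libraries carry the replicate number of their labels (WT library 2 is WT replicate 2). The Tregs were sorted from LLC tumors that had colonized the lung, with 3 libraries from Foxp3 Yfp-Cre mice (WT) and 3 from Xrcc6 fl/fl Foxp3 Yfp-Cre mice (cKO). LLC is a mouse lung carcinoma line. It was injected into the tail vein of mice aged 8 to 10 weeks on a C57BL/6J background, and tumors were taken at day 21. Both groups carried the Yfp-Cre allele, which is driven from the Foxp3 locus, so that the groups differed by the floxed Xrcc6 alleles, and deletion of Ku70 was directed to Foxp3-expressing cells. How many mice went into each library was not given in the sources used here, so p-values measure the spread between these libraries, which may be in part technical.

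RGS proteins bind activated G alpha subunits and speed up the hydrolysis of GTP, which shortens the signal that a G-protein-coupled receptor sends. In lymphocytes this class of receptor includes the chemokine, sphingosine-1-phosphate, prostaglandin and adenosine receptors, and RGS proteins are known for limiting chemokine responses. Rgs1, Rgs2, Rgs3, Rgs16 and Rgs18 belong to the R4 family, which is built mainly of the RGS domain. Rgs10 and Rgs14 belong to the R12 family and Rgs19 to the RZ family. The comparison of cKO with WT asked whether the transcripts of these regulators differed in tumor-infiltrating Tregs when Ku70 was deleted.

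The WT libraries held 19032620 to 21707706 counts and the cKO libraries 20762042 to 23159815. Levels are given as CPM, the count relative to the TMM-scaled library total. For a library without a count of a gene, the limit is 3 counts, which amounted to 0.133 to 0.156 CPM and covers counting error only. WT replicate 2 stood apart, with 11513 genes detected against 14442 to 14737 in the other 5 libraries, so the results of the RGS genes and of the gene lists are given with and without it. Xrcc6, the targeted gene, was at 20.9, 63.1 and 23.8 CPM across WT libraries 1 to 3 and at 5.24, 3.51 and 4.18 CPM across cKO libraries 1 to 3, so that every library matched its label. The Treg and T cell markers Foxp3, Il2ra, Ctla4, Ikzf2, Cd3e and Cd4 had counts in every library and summed to 3596 to 4401 CPM in WT and 3682 to 3970 CPM in cKO. Trac was not listed or had no counts, so it was not analysed here.

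The RGS transcripts of these Tregs came mainly from 3 genes. Together, Rgs1, Rgs2 and Rgs16 made up 88.7% to 92.5% of the summed CPM of the 8 genes in every library, and 4 of the others, Rgs10, Rgs3, Rgs14 and Rgs19, were present at a lower level. Rgs18 was at or near the limit of detection. No RGS gene passed the test of cKO against WT. The fitted log2 fold change (cKO over WT) was above 0 for 5 genes and below 0 for 3, and for 4 and 4 without WT replicate 2. The median over the 8 genes was 0.06 on the log2 scale, against 0.04 over all 15315 genes tested, and 0.00 against -0.01 without WT replicate 2.

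With edgeR's quasi-likelihood test and Benjamini-Hochberg adjustment over all genes, 0 of the 8 RGS genes had an adjusted p under 0.05, and the share among all genes tested was 0%. At an unadjusted p under 0.05, edgeR also called 0 of 8, where it called 1.81% of all genes. The count was 0 of 8 without WT replicate 2 (3.01% of all genes by edgeR), 0 of 8 by DESeq2 (2.01% of all genes) and 0 of 8 by DESeq2 without WT replicate 2 (2.42% of all genes). In 0 of the 8 genes did the CPM values of the groups separate without overlap, which 8.24% of all genes did. Read against these shares, a count of 0 among 8 genes is not a result about the RGS genes. Xrcc6, the deleted gene, also failed adjustment with edgeR on all 6 libraries (log2 fold change -3.06, adjusted p = 0.984). Its adjusted p was 0.0196 from edgeR without WT replicate 2 and 1.2e-05 from DESeq2 on all 6 libraries. A failed adjustment in the edgeR fit on all 6 libraries therefore does not show that a gene was unchanged. The lowest adjusted p of any RGS gene over all fits tried was 0.677. The intervals below show how large a difference each gene could still hold.

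**Figure D1:**
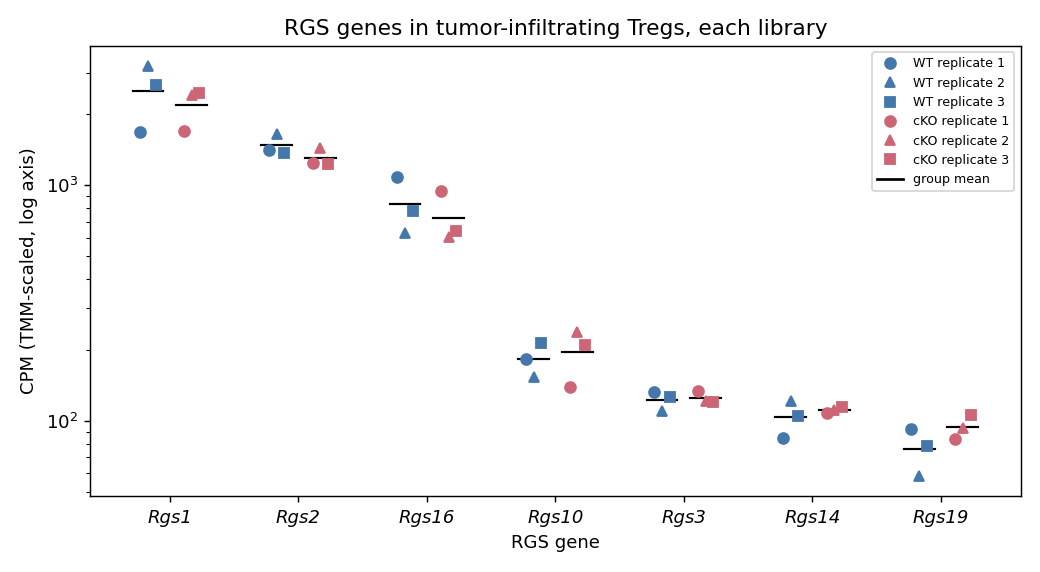
CPM (TMM-scaled, log axis) of 7 RGS genes in each library, with WT libraries in blue, cKO libraries in red, symbols for the replicate number and a black line at the group mean; Rgs18, with 0 to 6 counts in a library, is not drawn. The WT and cKO points overlap for every gene drawn, and Rgs1, Rgs2 and Rgs16 lie well above the other 4 genes.

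Rgs1, a regulator of chemokine receptor signaling in B and T cells, was at 1680, 3201 and 2657 CPM across WT libraries 1 to 3. Across cKO libraries 1 to 3 it was at 1697, 2420 and 2460 CPM. The lowest libraries of both groups lay side by side, and the cKO values lay within the WT range. Mean levels were 2513 ± 770 CPM in WT and 2193 ± 429 CPM in cKO (SD, n = 3). Its log2 fold change, -0.20 (standard error 0.31), had a 95% interval from -0.92 to 0.53, a fold of 0.529 to 1.44, and an adjusted p of 0.984 from edgeR. It was 0.02 when WT replicate 2, the highest library, was left out, so the sign rested on that library. By count alone, Rgs1 ranked between 16 and 78 among all genes of a library.

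Rgs2, which acts mainly on G alpha q, was the steadiest of the abundant genes. WT libraries 1 to 3 held 1413, 1657 and 1374 CPM of Rgs2, and cKO libraries 1 to 3 held 1249, 1444 and 1232 CPM. Of the cKO libraries, 2 lay below all WT libraries and 1 lay within the WT range. The group means of Rgs2 were 1481 ± 154 CPM and 1308 ± 118 CPM (SD, n = 3), and the log2 fold change was -0.18 (standard error 0.20, 95% interval -0.64 to 0.28, adjusted p = 0.984 from edgeR). Without WT replicate 2 it was -0.09. The sign of Rgs2 was the same in every fit tried, from -0.26 to -0.09.

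Rgs16, which is induced when T cells are activated, was at 1084, 625 and 781 CPM across WT libraries 1 to 3. Across cKO libraries 1 to 3 it was at 944, 604 and 640 CPM. The first replicate was the highest library of each group. The means of Rgs16 were 830.1 ± 234 CPM in WT and 729 ± 187 CPM in cKO (SD, n = 3), and the log2 fold change was -0.19 (standard error 0.28, 95% interval -0.84 to 0.46, adjusted p = 0.984 from edgeR). Leaving out WT replicate 2 gave -0.36 and leaving out WT replicate 1 gave 0.05, and neither passed an unadjusted p of 0.05 with edgeR.

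Rgs10, a short R12 protein that acts on G alpha i, was at 182, 154 and 215 CPM across WT libraries 1 to 3 and at 140, 239 and 211 CPM across cKO libraries 1 to 3. The cKO group held both the lowest and the highest library. Its log2 fold change was 0.10 (standard error 0.23, 95% interval -0.44 to 0.64), and it was -0.01 without WT replicate 2 and -0.07 without cKO replicate 2, so that no direction could be given.

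Rgs14, the other R12 gene, encodes a protein that also binds inactive G alpha i and Ras family proteins. It was at 84.6, 121 and 105 CPM across WT libraries 1 to 3 and at 107, 111 and 114 CPM across cKO libraries 1 to 3. All cKO libraries lay inside the WT range and differed among themselves by less than the WT libraries did. The log2 fold change of Rgs14 was 0.10 (standard error 0.16, 95% interval -0.28 to 0.47). With WT replicate 2 left out it was 0.23 (95% interval -0.10 to 0.55, unadjusted p = 0.147 from edgeR), and the groups no longer overlapped. Rgs14 was then the 1 of 8 RGS genes without overlap, at 16.0% of all genes, since 2 libraries against 3 separate more often. Without WT replicate 1 its log2 fold change was -0.03.

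Rgs19, an RZ family regulator also known as GAIP, had the largest log2 fold change of the 7 RGS genes above the limit of detection when all 6 libraries were used, a rank it lost to Rgs16 and Rgs14 without WT replicate 2. It was at 91.9, 58.4 and 78.1 CPM across WT libraries 1 to 3 and at 83.7, 93.5 and 106 CPM across cKO libraries 1 to 3. Of the cKO libraries, 2 lay above every WT library and 1 lay below WT replicate 1. The means of Rgs19 were 76.1 ± 16.8 CPM and 94.4 ± 11.2 CPM (SD, n = 3), and the log2 fold change was 0.31 (standard error 0.20, 95% interval -0.15 to 0.77, unadjusted p = 0.152 and adjusted p = 0.984 from edgeR). WT replicate 2 was its lowest library, and without it the log2 fold change was 0.15 (unadjusted p = 0.348 from edgeR). Leaving out WT replicate 1 instead gave 0.47 and an unadjusted p of 0.0456 from edgeR, a level that 5.71% of all genes reached in that fit, with an adjusted p of 0.677.

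Rgs3, a longer R4 gene with 17 annotated transcripts, had the log2 fold change closest to 0 with all 6 libraries. WT libraries 1 to 3 were at 132, 110 and 126 CPM of Rgs3, and cKO libraries 1 to 3 were at 134, 121 and 120 CPM. The 6 libraries lay within a 1.21-fold range, the narrowest of the RGS genes. The log2 fold change of Rgs3 was 0.02 (standard error 0.14, 95% interval -0.29 to 0.34, adjusted p = 0.993 from edgeR), a fold of 0.815 to 1.27. Its sign turned with library totals only as the scaling, and it was -0.05 without WT replicate 2, where Rgs10 and Rgs1 were closer to 0.

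Rgs18, which is known mainly from megakaryocytes and platelets, had 0, 0 and 6 counts across WT libraries 1 to 3 and 2, 3 and 6 counts across cKO libraries 1 to 3. Of the 6 libraries, 4 were at or under the limit of 3 counts, and the third replicate of each group was the highest. The 95% interval of its log2 fold change ran from -2.84 to 4.22, so no difference could be seen at this depth. Without WT replicate 3, both WT libraries left were at 0 and the unadjusted p was 0.0398 from edgeR (adjusted p = 0.851), which 3.76% of all genes reached in that fit. The platelet and megakaryocyte markers were also highest in the third replicates. Their summed level was 6.02, 0.141 and 33.7 CPM across WT libraries 1 to 3 and 9.74, 21.5 and 45.6 CPM across cKO libraries 1 to 3. Of 6 such markers 5 had counts, with Pf4 the most abundant, and Pf4, Ppbp, Itga2b and Gp9 were each at 0 in at least 1 library. The part of such cells in the counts of Rgs18 was not tested.

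**Figure D2:**
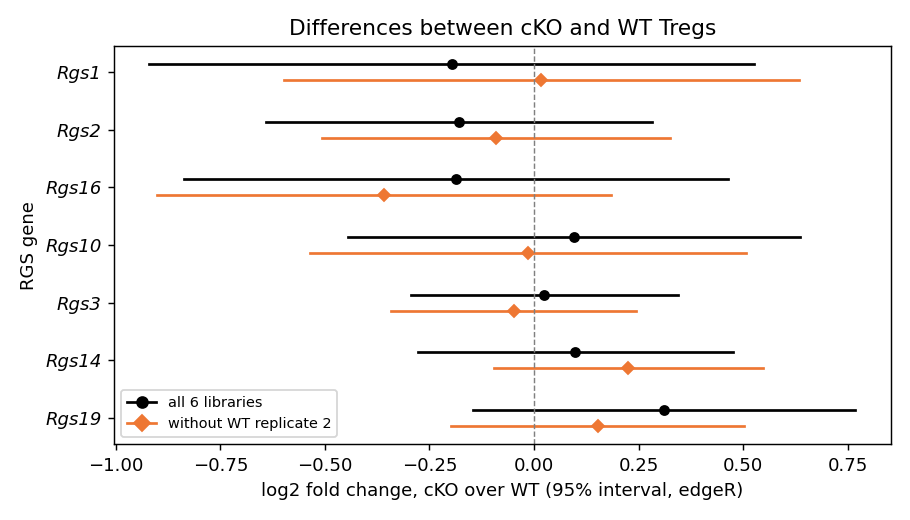
Log2 fold change of cKO over WT for 7 RGS genes (x axis) with its 95% interval from edgeR, over all 6 libraries (black circles) and without WT replicate 2 (orange diamonds); the dashed line marks no difference. Every interval includes 0, and the estimates of Rgs1, Rgs10 and Rgs3 change sign when WT replicate 2 is left out.

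Since a longer transcript yields more counts, levels were compared between RGS genes as CPM per kilobase of annotated exon. On this scale the mean level over the 6 libraries was 385 for Rgs2, 339 for Rgs1 and 333 for Rgs16. These 3 neighbours did not differ beyond their spread, and each of them led in some library. Rgs2 reached 340 to 457 across libraries, Rgs1 242 to 461 and Rgs16 258 to 464. Rgs10 followed at 111 CPM per kilobase, with a range of 81.6 to 140 that met neither the genes above nor those below it. Rgs19 at 38.2 and Rgs14 at 25.2 CPM per kilobase had overlapping ranges, 26.2 to 47.6 and 19.96 to 28.5. Rgs3 was at 11.5 and Rgs18 at 0.0670 CPM per kilobase. Per kilobase of the longest transcript instead of all exons, the order was the same.

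The RGS genes also differed in how far replicates of a group spread. The within-group SD of log2 CPM was 0.40 for Rgs1, 0.38 for Rgs16 and 0.33 for Rgs10, against a median of 0.23 over the 3804 genes with a mean of 50 CPM or more. These SDs lay at the percentiles 80.9, 78.1 and 72.1 of those genes, and at 94.1, 92.6 and 92.4 without WT replicate 2. Rgs3 at 0.11 and Rgs2 at 0.14 lay at the percentiles 10.8 and 17.6, and at 13.9 and 24.4 without WT replicate 2. Rgs14 and Rgs19 lay between, at the percentiles 33.1 and 57.9, and at 34.8 and 54.3 without WT replicate 2. The RGS genes thus lay both above and below the median spread.

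In replicate 1 of each group, Rgs1 and Rgs16 departed from the other replicates in opposite directions. The ratio of Rgs1 to Rgs16 in CPM was 1.55, 5.12 and 3.40 across WT libraries 1 to 3 and 1.80, 4.01 and 3.84 across cKO libraries 1 to 3. In both groups replicate 1 had the lowest Rgs1 and the highest Rgs16, and on the scale per kilobase it was the library in which Rgs16 led. Summed over the 8 genes, these libraries were the lowest of their groups, at 4669 CPM against 5926 and 5336 in WT and 4356 against 5031 and 4883 in cKO. The summed level of the markers of macrophages and dendritic cells was lowest in the same libraries. It was 153, 611 and 586 CPM across WT libraries 1 to 3 and 201, 411 and 792 CPM across cKO libraries 1 to 3. All 6 of these markers had counts, Lyz2 was the most abundant, and Flt3 was at 0 in at least 1 library. Xcr1, a receptor of cross-presenting dendritic cells, went the other way and was highest in replicate 1 of each group. The sum therefore does not show that dendritic cells were fewer in replicate 1. The 6 B and plasma cell markers also summed lowest in replicate 1 of each group. They were at 15.1, 70.1 and 26.8 CPM across WT libraries 1 to 3 and 12.6, 32.9 and 51.8 CPM across cKO libraries 1 to 3. Cd79b was the most abundant of them, and Ms4a1 was at 0 in at least 1 library. The summed level of 15 immediate-early genes, which rise within minutes of cell activation or tissue handling, was 11067, 22127 and 16295 CPM in WT and 13569, 14214 and 16323 CPM in cKO. Some T cell genes, picked after their values were seen, also differed in replicate 1. Ccr8 was highest there, at 1122, 436 and 586 CPM in WT and 711, 641 and 481 CPM in cKO. Ccr7 was lowest there, at 589, 911 and 808 CPM in WT and 757, 922 and 951 CPM in cKO. S1pr1 was lowest there as well. The Treg and T cell markers summed highest there, at 4401, 3596 and 3823 CPM in WT and 3970, 3957 and 3682 CPM in cKO. The part of other cells or of activation in the levels of Rgs1 and Rgs16 was not tested, and in bulk samples fewer cells of a type and less RNA per cell cannot be told apart.

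**Figure D3:**
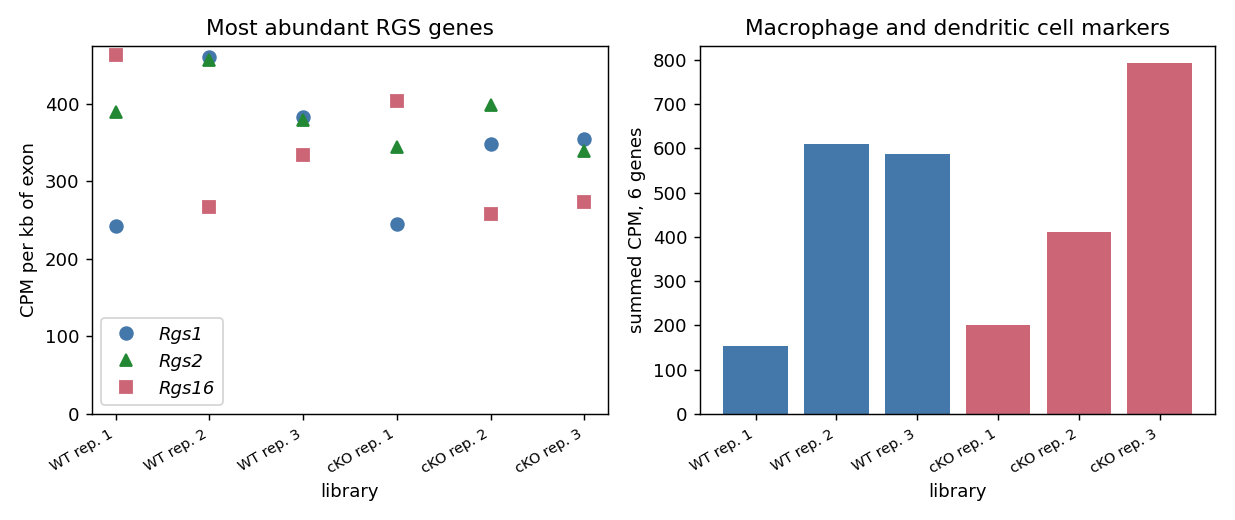
Left, CPM per kilobase of exon of Rgs1, Rgs2 and Rgs16 in each library. Right, summed CPM of 6 macrophage and dendritic cell markers in the same libraries, WT in blue and cKO in red. Replicate 1 of each group has the lowest Rgs1, the highest Rgs16 and the lowest marker sum of its group.

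The other marker lists were at low levels in both groups. Neutrophil markers summed to 10.1 to 20.5 CPM in WT and 15.0 to 19.0 CPM in cKO, CD8 T and NK cell markers to 5.26 to 21.9 and 19.8 to 21.9 CPM, and pericyte and endothelial markers to 61.0 to 80.6 and 69.8 to 94.4 CPM. S100a9, Retnlg and Mmp8 of the neutrophil list and Cd8a, Klrb1c and Klrd1 of the CD8 T and NK list were at 0 in at least 1 library, as were 5 of the 6 pericyte and endothelial markers, all but Pecam1.

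Of the 8 genes, 4 lie on chromosome 1 of GRCm38. Rgs2 (143999338 to 144004161), Rgs1 (144242296 to 144249242) and Rgs18 (144752683 to 144775435) lie on the minus strand within 776 kb, and Rgs16 (153740349 to 153745468, plus strand) lies 8965 kb beyond Rgs18. The neighbours Rgs1 and Rgs18 thus stood at opposite ends of the range of levels, at 2353 and 0.136 CPM on average. Rgs3 lies on chromosome 4 (62559847 to 62704001), Rgs10 on chromosome 7 (128373621 to 128418758), Rgs14 on chromosome 13 (55369732 to 55384687) and Rgs19 on chromosome 2 (181688419 to 181693977). Rgs16 overlaps the antisense gene Gm28513, Rgs3 the antisense gene Gm11209 and Rgs10 the noncoding Gm15503 on its own strand. Whether counting used strand is not given in the sources used here, so that reads of these partners cannot be told apart from theirs. All counts of the 8 genes were whole numbers.

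None of the other RGS genes and RGS-binding partners exceeded 15 CPM on average. Of 15 listed, 9 had counts and 3, Rgs9, Rgs11 and Rgs12, passed a filter on low counts. Their fitted log2 fold changes were above 0 for 2 and below 0 for 7, with a median of -0.04 over the 9 and of -0.55 over the 3 past the filter, and 0 of 9 had an unadjusted p under 0.05 with edgeR. Without WT replicate 2 these medians were -0.52 and -0.47, and 3 of 9 (33.3%) were called lower, where edgeR called 3.01% of all genes. With DESeq2, Rgs11 had an unadjusted p under 0.05 with all 6 libraries (0.0364). Without WT replicate 2 it was Rgs9 instead (0.0453 from DESeq2), and 0 genes passed adjustment with either tool. Rgs9 and Rgs11 belong to the R7 family, which works in a complex with G beta 5. Rgs9 was at 23.0, 15.0 and 15.1 CPM across WT libraries 1 to 3 and at 16.9, 10.6 and 8.72 CPM across cKO libraries 1 to 3. Its groups overlapped by 1 library, and the log2 fold change was -0.55 (standard error 0.35, unadjusted p = 0.150 from edgeR) and -0.67 without WT replicate 2 (unadjusted p = 0.0457 from edgeR).

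Rgs11 was at 12.1, 16.1 and 14.5 CPM across WT libraries 1 to 3 and at 9.37, 11.2 and 8.23 CPM across cKO libraries 1 to 3, with every cKO library below every WT library. A separation without overlap, in either direction, was seen in 8.24% of all genes. The log2 fold change of -0.57 (standard error 0.29) had an unadjusted p of 0.0874 from edgeR and 0.0364 from DESeq2. Leaving out WT replicate 2 gave -0.47 (unadjusted p = 0.0458 from edgeR and 0.0578 from DESeq2). Neither gene passed adjustment in any fit (adjusted p of at least 0.677), and Rgs11 overlaps Arhgdig on the other strand. Rgs12 had 99 to 177 counts in WT and 123 to 196 in cKO. Rgs9bp, which anchors Rgs9 to membranes, had 3, 0 and 5 counts in WT and 0, 1 and 0 in cKO (unadjusted p = 0.0431 from edgeR without WT replicate 2). Rgs8 had up to 21 counts in a library, Rgs5 had 7 counts in cKO replicate 3 and 0 elsewhere, and Rgs6, Rgs20 and Rgs7bp had at most 4. Rgs4, Rgs7, Rgs13, Rgs17, Rgs21 and Rgs22 were not found under these symbols among the genes listed, so they were not analysed here.

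The G alpha subunits, the class of protein that RGS proteins bind, had 14 of 16 genes with counts. Of these, 5 had a fitted value above 0 and 9 below, with a median of -0.24, which was -0.08 without WT replicate 2. The only 1 with an unadjusted p under 0.05 from edgeR was Gnaq, G alpha q, which couples receptors to phospholipase C beta. That is 7.14% of the 14, against 1.81% of all genes, and without WT replicate 2 it was 14.3% against 3.01%. Gnaq was at 31.8, 42.1 and 36.8 CPM across WT libraries 1 to 3 and at 26.8, 26.7 and 27.8 CPM across cKO libraries 1 to 3. The cKO libraries lay close together and all were below the WT libraries, where 8.24% of all genes separated without overlap in either direction. The log2 fold change of Gnaq was -0.45 (standard error 0.17, 95% interval -0.85 to -0.04), with an unadjusted p of 0.0361 from edgeR and 0.0193 from DESeq2, and it was -0.34 without WT replicate 2 (0.0314 from edgeR). The difference failed adjustment over all genes (adjusted p = 0.984 from edgeR), and its unadjusted p from edgeR was 0.0735 without WT replicate 3, 0.0926, 0.104 and 0.0920 without cKO replicate 1, 2 or 3, and 0.0859 with the replicate number as a block. The most abundant G alpha genes did not pass the test. Gnai2, G alpha i2, was at 974 ± 96.1 CPM in WT and 1027 ± 49.6 CPM in cKO (SD, n = 3), and its log2 fold change was 0.08 (standard error 0.18). Gna13 was at 813 ± 189 and 686 ± 15.8 CPM, with -0.25 (standard error 0.21), and -0.04 without WT replicate 2. Gna14 was at 40, 0 and 73 counts in WT and 30, 23 and 34 in cKO, with a log2 fold change of -0.51, and -1.09 without WT replicate 2 (unadjusted p = 0.0286 from edgeR).

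**Figure D4:**
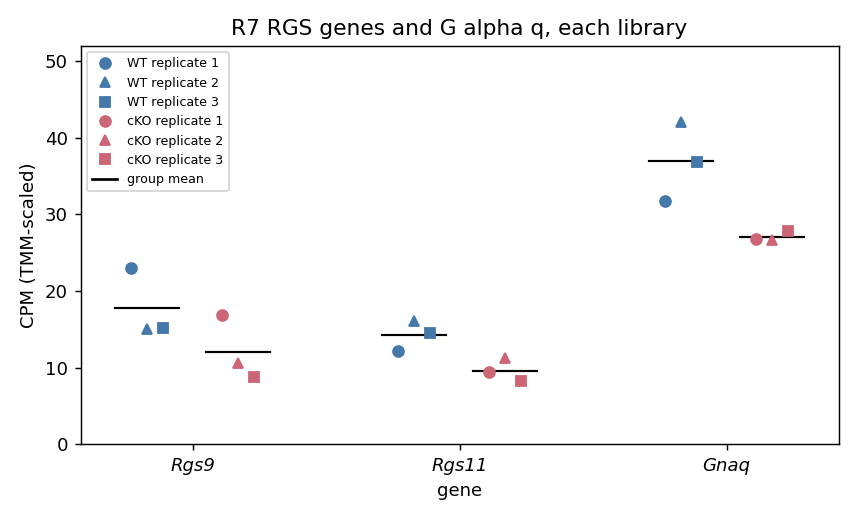
CPM (TMM-scaled) of Rgs9, Rgs11 and Gnaq in each library, WT in blue and cKO in red, with symbols for the replicate number and a black line at the group mean. The cKO libraries lie below all WT libraries for Rgs11 and Gnaq and overlap by 1 library for Rgs9. Groups separated without overlap, in either direction, in 8.24% of all genes.

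Over all 8 lists of G-protein genes, 132 of 146 listed symbols had counts, 81 with a fitted value above 0 and 51 below. At an unadjusted p under 0.05 edgeR called 1 higher, Gng7, and 1 lower, Gnaq, which is 1.52% against 1.81% of all genes, and 0 passed adjustment. Without WT replicate 2 these counts were 5 higher and 6 lower, 8.33% against 3.01% of all genes, and 0 passed adjustment. The median over the 132 genes was 0.07, and 0.01 without WT replicate 2. Of 17 G beta and gamma genes, 15 had counts, 12 above 0 and 3 below (median 0.12), which turned to 5 above and 10 below (median -0.08) without WT replicate 2. The most abundant, Gnb1 and Gnb2, had log2 fold changes of -0.22 and 0.01, and of -0.08 and -0.03 without that library. Gng7 had 0 counts in every WT library and 2, 2 and 5 in the cKO libraries (unadjusted p = 0.0283 from edgeR and 0.223 from DESeq2), all near the limit of detection, and its unadjusted p from edgeR was 0.0560 to 0.0921 when WT replicate 1 or any 1 of the cKO libraries was left out. Receptor kinases and arrestins, which also end receptor signals, were listed under 10 symbols. These included Adrbk1 and Adrbk2, older symbols of the listed Grk2 and Grk3. Of the symbols 8 had counts, 3 above 0 and 5 below (median -0.09 with and without WT replicate 2). Grk6 was at 0.04 and Grk2 at 0.00, and they were at 0.20 and -0.05 without WT replicate 2.

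Of the 18 chemokine receptors, whose signals RGS proteins shorten, 12 were above 0 and 6 below, with a median of 0.13 and 0 called by edgeR. Without WT replicate 2, 9 were above 0 and 9 below, with a median of 0.01. Of the 18, 2 were then called (11.1%), where edgeR called 3.01% of all genes. Ccr7, the receptor for lymph node chemokines, was at 0.19 on the log2 fold change scale (standard error 0.22), and Ccr8, a receptor of tumor Tregs, at -0.23 (standard error 0.36), and without WT replicate 2 they were at 0.33 and -0.48. Ccr10 had 6, 0 and 4 counts in WT and 18, 8 and 30 in cKO, with an unadjusted p of 0.0938 from edgeR and 0.0434 without WT replicate 2. Xcr1, a receptor of cross-presenting dendritic cells, had a log2 fold change of -0.21, and of -0.74 without WT replicate 2 (unadjusted p = 0.0382 from edgeR). Of 32 lipid, purine and other receptors, 23 were above 0 and 9 below (median 0.18), with 0 called. Without WT replicate 2 the median was 0.12, with 2 of 32 called (6.25%, against 3.01% of all genes). Gpr132 and S1pr1 were the most abundant, with log2 fold changes of 0.04 and 0.42 (standard errors 0.17 and 0.42), and of 0.16 and 0.68 without WT replicate 2. S1pr4, a sphingosine-1-phosphate receptor, was at 130, 161 and 136 CPM in WT and 147, 177 and 209 CPM in cKO, with a log2 fold change of 0.32 (unadjusted p = 0.111 from edgeR) and of 0.42 without WT replicate 2 (unadjusted p = 0.0430 from edgeR). Gpr18 moved from 0.11 to 0.53 when that library was left out (unadjusted p = 0.0343 from edgeR).

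Downstream of the G proteins, 20 of 22 adenylyl cyclases, phosphodiesterases and protein kinase A subunits had counts, 14 above 0 and 6 below (median 0.25, and 0.11 without WT replicate 2), with 0 called by edgeR in either fit. Prkar1a and Pde4b were at -0.07 and -0.08, and at -0.04 and 0.11 without WT replicate 2, so that Pde4b turned. Adcy7 was at -0.17 (unadjusted p = 0.288 from edgeR), and DESeq2 without WT replicate 2 gave -0.27 (unadjusted p = 0.0456). The 16 phospholipase C beta and exchange factor genes had 10 above 0 and 6 below (median 0.04, and 0.01 without WT replicate 2), with 0 called. Without WT replicate 2, 1 of 16 was called (6.25%, against 3.01% of all genes). Arhgef1 was at -0.16 and turned to 0.13 without that library, and Dock2 was at 0.00 and then 0.01. Pik3r6, a subunit of the G-protein-activated PI3K gamma, had 5, 0 and 4 counts in WT and 13, 17 and 22 in cKO, and its unadjusted p from edgeR was 0.0749, and 0.0225 without WT replicate 2. Among the 15 immediate-early genes, 5 were above 0 and 10 below (median -0.08), which turned to 10 above and 5 below (median 0.07) without WT replicate 2. Junb and Dusp1, the most abundant, had log2 fold changes of -0.32 and -0.00, and both were at 0.05 without that library. Egr3, which T cell receptor signals induce, was at 8.84, 19.9 and 9.80 CPM in WT and 7.47, 6.05 and 5.20 CPM in cKO, with a log2 fold change of -1.04 (unadjusted p = 0.0415 from edgeR) and -0.58 without WT replicate 2 (0.0306). Egr3 failed adjustment (adjusted p = 0.984 from edgeR), and its unadjusted p from edgeR was 0.0651, 0.108 and 0.130 without cKO replicate 1, 2 or 3.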

How the data were processed

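Per the submitters' processing notes, Bowtie2 (version 2.3.4.3) and RSEM (version 1.3.1) were used with GRCm38. The authors deposited estimated counts per gene symbol (expected counts, not normalized) from paired-end reads, and the annotation and strand setting are not given in the sources used here. Of the values, 21.6% were not whole and were rounded.

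Counts of the 15315 genes with at least 1 count were tested with edgeR's quasi-likelihood test (version 4.0.16, R 4.3.3) after TMM scaling, 3 WT against 3 cKO, with Benjamini-Hochberg adjustment over all genes at 0.05. Intervals are 95% intervals from that fit. An exact permutation test of 3 against 3 cannot give a p under 0.1 and was not used for calls. Replicates of a group differed beyond sampling noise. Positions and exon lengths came from GENCODE vM21 on GRCm38.

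The RGS genes and gene lists were chosen with earlier results of these data known. The genes named are all 8 RGS genes, Xrcc6, and from each list the 2 most abundant genes and those with an unadjusted p under 0.05 in edgeR or DESeq2, with or without WT replicate 2. Rgs5, Rgs6, Rgs7bp, Rgs8, Rgs12 and Rgs20 fall outside this rule and were named, after their values were seen, to account for the list of other RGS genes. Other settings tried were DESeq2 (version 1.42.0) with and without WT replicate 2, scaling by the median of ratios or by totals alone, a low-count filter (filterByExpr, minimum 10), limma with library weights (voomWithQualityWeights, version 3.58.1), a block for the replicate number, and leaving out single libraries.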

Additional observations from a re-analysis of the deposited data

How the results depend on the processing

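Of 103 log2 fold changes of the RGS genes under other settings, 91 kept their sign and 12 turned it, and 0 passed an adjusted p of 0.05. With DESeq2 and WT replicate 2 left out, Rgs1 turned to 0.014, Rgs3 to -0.050 and Rgs10 to -0.017. Rgs3 also turned to -0.029 with library totals only and to -0.051 with voomWithQualityWeights. When single libraries were left out with edgeR, values lay between -0.42 and 0.018 for Rgs1 (highest without WT replicate 2), -0.048 and 0.082 for Rgs3 (lowest without WT replicate 2), -0.069 and 0.29 for Rgs10 (lowest without cKO replicate 2), -0.027 and 0.23 for Rgs14 (lowest without WT replicate 1) and -0.42 and 0.053 for Rgs16 (highest without WT replicate 1). The cause was not tested.

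Over all genes, the number with an adjusted p under 0.05 was 0 with edgeR, 2 with DESeq2, 3 with DESeq2 without WT replicate 2 and 0 to 1 with a library left out. The number with an unadjusted p under 0.05 was 277, and it was 140 with filterByExpr, 543 with voomWithQualityWeights and 65 to 874 with a library left out, lowest without cKO replicate 3 and highest without WT replicate 1. The genes whose groups did not overlap numbered 1262, and 1740 to 4109 with a library left out, where fewer libraries separate more often. Of the 132 G-protein list genes with counts, 1 was called higher and 1 lower, where 1.81% of all genes were called. These counts were 0 and 2 with DESeq2 (2.01% of all genes). They were 3 and 5 with DESeq2 without WT replicate 2 (2.42% of all genes). With voomWithQualityWeights they were 4 and 6, where 543 of all 15315 genes were called. With filterByExpr they were 0 and 1, where 140 of all genes were called. With a library left out they were 0 to 6 in each direction, where 65 to 874 of all genes were called.

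With the replicate number as a replicate block, 85 genes had an unadjusted p under 0.05 and 0 passed adjustment. Of the G-protein list genes, 0 were called higher and 1 lower. The labels do not say that a number marks a shared day or litter, so the numbers were not taken to pair the libraries. The correlation of deviations between libraries of the same number was 0.133, -0.0167 and 0.221 over 12344 genes. Between libraries of unlike numbers it ran from -0.209 to 0.0585, below the values of numbers 1 and 3. The deviations were taken from group means, so that a higher value for some pairs forces lower values for others. Whether libraries of the same number shared a batch was not tested.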
